A study of Homo sapiens with 19 samples.

Results

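Of the 9969 HL-60 regions marked by H3K27ac that lay more than 2 kb from every annotated transcription start site (TSS), 1329 were also marked in Molm13, OCI-AML3 and K562 cells. These 1329 shared distal regions made up 13.3% of the distal HL-60 regions (95% Wilson interval 12.7 to 14.0) and came from an HL-60 list of 20733 regions on chromosomes 1 to 22 and X. A region was chosen when its HL-60 peak was overlapped by at least 1 bp in each of the 3 other peak lists. The members were thus selected on measured values, the presence of a peak in each of the 4 lists, and peak presence, width and fold enrichment are given below as a description only.

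H3K27ac is the acetylation of lysine 27 of histone H3, which marks active promoters and active enhancers. Enhancers are stretches of DNA that bind transcription factors and raise the transcription of genes that may lie far away, and most of them are used in some cell types and not in others. A distal region with the mark in several leukaemia lines is a candidate enhancer of a gene programme that those lines share.

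The series held 19 samples in 16 groups, of which 5 peak lists were used and 14 samples were not analysed here. HL-60 and Molm13 (MOLM-13) are acute myeloid leukaemia (AML) lines that were profiled untransduced. OCI-AML3, a further AML line, and K562, a line from the blast crisis of chronic myeloid leukaemia with erythroid features, both carried dCas9-KRAB-mCherry, an inactive Cas9 fused to a repressor domain, with an sgRNA vector that held no guide and a BFP reporter. The vector and the line cannot be told apart in these lists. The fifth list was the binding of dCas9 itself in K562 cells that carried 4 sgRNAs against LTR2B elements. Each line had 1 library and each list holds the regions of established cultures grown in bulk, so no test between lines was possible and all intervals below are over regions and cover counting error only. The lists give no read counts, so the depth behind each region is unknown.

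The labelled cell types were checked by peaks within 500 bp of the TSS of marker genes. Of 9 erythroid markers, K562 had a peak at 9 and the other lines at 2 each, while of 9 myeloid markers HL-60 had a peak at 6, Molm13 at 8, OCI-AML3 at 9 and K562 at 5. All 4 lists had peaks with a q-value above 0.05, the cutoff in the stated settings of the peak caller, and these made up 15.0% of the HL-60 list and between 5.47 and 5.97% of the others; they were kept, as the rule takes the lists as deposited.

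The regions that were strong in every line are shown first. Members were ordered by their lowest percentile of fold enrichment over the 4 lists, where the percentile is the share of a list's peaks with a lower fold enrichment over background. In Molm13, OCI-AML3 and K562 the value is that of the whole overlapping peak, which was often wider than the HL-60 region. For 5 of the first 6, the stretch of 300 bp with the most different motifs of those searched is printed on the plus strand of hg38. It was taken from the part covered in all 4 lists, leftmost on ties, and the motif letters are in capitals. The motif shares and base composition given further on are of the central 500 bp of each region. Of the printed stretches, only the TMSB4X one lies within that central part.
ENSG00000230490 member (chr13:33541916-33542215): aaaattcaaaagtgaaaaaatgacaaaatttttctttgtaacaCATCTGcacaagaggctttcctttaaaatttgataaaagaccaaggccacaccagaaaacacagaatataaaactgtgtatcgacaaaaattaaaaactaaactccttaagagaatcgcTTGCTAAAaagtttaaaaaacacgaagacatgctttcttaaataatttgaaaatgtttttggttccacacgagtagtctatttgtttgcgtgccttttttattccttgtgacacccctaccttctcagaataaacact
ENSG00000226355 member (chr9:129412740-129413039): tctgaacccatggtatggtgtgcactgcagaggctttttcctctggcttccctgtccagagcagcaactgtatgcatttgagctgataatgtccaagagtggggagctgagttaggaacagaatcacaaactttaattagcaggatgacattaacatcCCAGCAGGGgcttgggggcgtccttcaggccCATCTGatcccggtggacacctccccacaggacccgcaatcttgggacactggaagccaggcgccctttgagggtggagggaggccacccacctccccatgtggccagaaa
PIGL intron member (chr17:16286366-16286665): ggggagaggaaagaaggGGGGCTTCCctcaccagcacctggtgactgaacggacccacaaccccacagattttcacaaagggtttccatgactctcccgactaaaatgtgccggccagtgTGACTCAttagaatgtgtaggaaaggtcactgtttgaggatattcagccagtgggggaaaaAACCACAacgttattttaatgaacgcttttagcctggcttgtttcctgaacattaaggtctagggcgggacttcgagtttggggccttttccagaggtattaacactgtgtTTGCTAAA
SDE2 member (chr1:226001983-226002282): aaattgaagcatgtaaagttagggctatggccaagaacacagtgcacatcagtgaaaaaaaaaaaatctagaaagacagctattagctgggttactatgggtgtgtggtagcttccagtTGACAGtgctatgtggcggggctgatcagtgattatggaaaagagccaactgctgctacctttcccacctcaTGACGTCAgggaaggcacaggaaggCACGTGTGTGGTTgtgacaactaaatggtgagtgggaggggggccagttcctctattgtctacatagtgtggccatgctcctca
TMSB4X member (chrX:12956229-12956528): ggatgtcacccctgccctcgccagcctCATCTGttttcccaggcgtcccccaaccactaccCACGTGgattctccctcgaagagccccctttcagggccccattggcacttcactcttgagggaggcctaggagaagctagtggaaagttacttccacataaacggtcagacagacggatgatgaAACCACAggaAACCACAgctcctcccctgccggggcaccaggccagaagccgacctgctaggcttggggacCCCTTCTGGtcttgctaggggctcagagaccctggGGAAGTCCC

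In the order printed, the capitals mark a TAL1 E-box and a CEBP motif in the ENSG00000230490 member, and a CTCF motif and a TAL1 E-box in the ENSG00000226355 member. The PIGL intron sequence holds NF-kB, AP-1, RUNX and CEBP letters. In the SDE2 member a MEIS and a CREB/ATF motif come before a MYC E-box that runs directly into RUNX letters. The TMSB4X sequence begins with a TAL1 E-box and a MYC E-box, followed by 2 RUNX motifs spaced by a few bases and letters for CTCF and NF-kB. A match describes the letters and does not show that a factor was bound.

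The strongest member across the lines was at chr13:33541916-33543765, in an intron of the non-coding gene ENSG00000230490, with the TSS of STARD13 as the nearest protein-coding start at 191286 bp. Its fold enrichment reached 9.20 in the HL-60 list, 12.6 in that of Molm13, 6.43 in that of OCI-AML3 and 4.60 in that of K562, each above the 97th percentile of its list, and all of its 1850 bp were covered in every list. The member at chr9:129412740-129414470, between genes and nearest to ENSG00000226355, had 8.12, 14.2, 5.79 and 4.28 in the same order of lines. The central 500 bp of these members were 65.2% and 70.6% GC, with CpG dinucleotides at 0.926 and 0.931 of the number expected from the base content. That composition is typical of CpG islands, which are found at many promoters, although the nearest annotated TSS was 17594 and 23746 bp away. The sequences printed above for these members lie outside the central 500 bp.

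The third member, at chr17:16285656-16288489 in an intron of PIGL, an enzyme of GPI anchor synthesis, had 6.95, 16.3, 6.24 and 4.65. At chr1:226001983-226003558, 2640 bp from the TSS of SDE2, a protein of the DNA damage response and splicing, the values were 7.09, 7.80, 5.54 and 4.83. At chrX:12954851-12957815, 17295 bp from the TSS of TMSB4X, which encodes the actin-binding thymosin beta 4, they were 7.62, 7.77, 5.46 and 4.52. The Molm13 value was the highest and the K562 value the lowest in each of these 5 members, but folds of different libraries are not on one scale.

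Further members of the first 10 were at chr17:43315481-43316971 near CCDC200, at chr9:6680568-6683392 in an intron of a non-coding gene near GLDC, the glycine decarboxylase, at chr17:39334504-39336754 in an intron of FBXL20, and at chr2:70141550-70143271 near LINC01816. Their folds ranged from 6.50 to 8.28 (HL-60), 8.44 to 11.9 (Molm13), 4.59 to 6.36 (OCI-AML3) and 4.15 to 4.70 (K562). The LINC01816 member had 75.8% GC, the most of the 10.

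Across all 1329 members HL-60 had a median fold enrichment of 3.74 (quartiles 3.30 and 4.49) and Molm13 of 5.22 (3.95 and 6.75), while OCI-AML3 had 3.73 (3.14 and 4.42) and K562 3.19 (2.73 and 3.80). As percentiles of each list, the medians were 54.8, 73.8, 75.0 and 66.8, and among the distal peaks of each list alone 79.0, 89.1, 87.9 and 82.8. The latter medians set the overlapping peaks against a scale of distal peaks only. Of those overlapping peaks, 14.5% (Molm13), 16.1% (OCI-AML3) and 15.6% (K562) lay within 2 kb of a TSS. In HL-60, where each member is itself a distal peak, members were in the stronger part of the distal peaks. The rule used the presence of peaks and not their fold enrichment, but both come from the same lists, so this is a description. In the other lists the ranking mixes distal peaks with peaks near a TSS. HL-60 was the line with the lowest percentile in 584 members, K562 in 419, OCI-AML3 in 174 and Molm13 in 152. The HL-60 list was the shortest, with 20733 peaks against 35069 (Molm13), 37531 (OCI-AML3) and 37424 (K562). Percentiles of lists of such different length are not on one scale, and the part of list length in these counts was not tested.

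**Figure D1:**
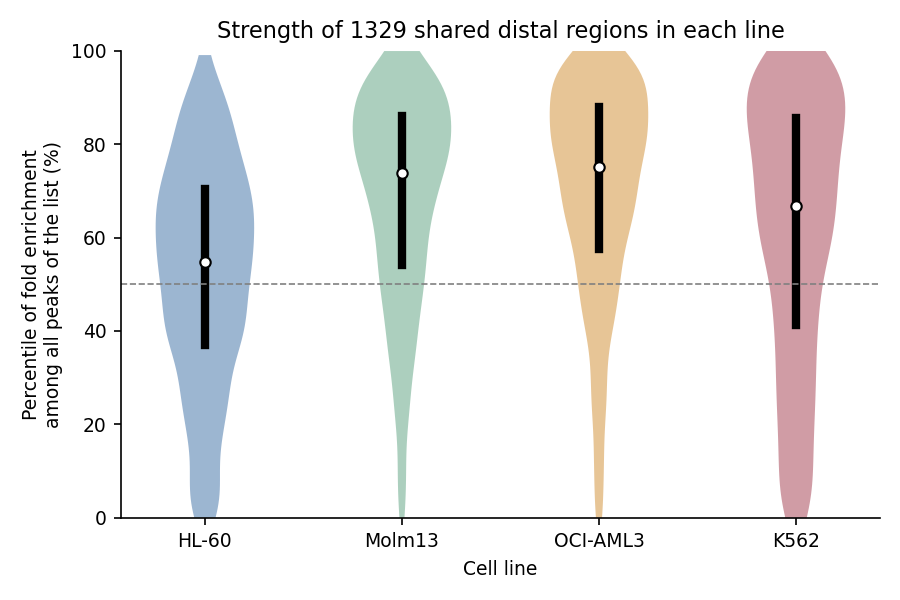
Percentile of fold enrichment among all peaks of the list (vertical axis, %) for the 1329 shared distal regions in each cell line (horizontal axis). Shapes show the distribution, black bars the quartiles, white points the median and the dashed line the 50th percentile; the medians lie at 54.8 (HL-60), 73.8 (Molm13), 75.0 (OCI-AML3) and 66.8 (K562), and each line has members over nearly the whole range.

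On the scale of all peaks of each list, few members were strong everywhere. In 443 members (33.3%) all 4 lines were at or above the 50th percentile, in 75 (5.64%) at or above the 75th and in 8 at or above the 90th. The order of the members by fold was most alike in Molm13 and OCI-AML3 (Spearman correlation 0.63 across 1329 regions), lower between HL-60 and Molm13 (0.36) or OCI-AML3 (0.27), and between 0.12 and 0.17 for each line with K562. These are correlations across regions of 1 library a line, and the regions are not independent replicates.

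Among the weakest members, chosen after their values were seen, chr5:49658354-49661662 had folds of 1.39, 1.53, 1.29 and 1.32 in HL-60, Molm13, OCI-AML3 and K562, and chr17:26603731-26604120 had 1.84, 1.75, 1.67 and 1.53. Only 3 members were below a fold of 2 in all 4 lists, and the third, at chr1:143263261-143265564, had 1.74, 1.87, 1.82 and 1.71. In these members a peak was called in every line at a very small enrichment.

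Members had a median width of 1072 bp in HL-60 (242 to 8195) against 655 bp for the 8640 other distal HL-60 regions. The overlapping peaks were wider, with medians of 2301 (Molm13), 2626 (OCI-AML3) and 2210 bp (K562) and maxima of 59338, 85530 and 47975 bp. In 461 members (34.7%) every base of the HL-60 region was covered in all lists, the median stretch covered in all 4 was 696 bp, and in 15 members no base was. In 345 members (26.0%) an overlapping peak of another line reached within 2 kb of a TSS, so that the marked stretch ran on towards a promoter in that line, and 984 members had no such peak.

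The widest stretch covered in all lines was the whole 8195 bp of chr16:85566187-85574381, in an intron of GSE1, a component of a histone deacetylase and demethylase complex. Its folds were 7.99 (HL-60), 11.1 (Molm13), 4.25 (OCI-AML3) and 4.83 (K562). A stretch of 6462 bp in chr3:171974791-171982561 lay 57017 bp from FNDC3B. The member at chr10:72318679-72324482 near DNAJB12, a chaperone of the endoplasmic reticulum, was covered in all lines over 5528 bp, and that in RUNX1 at chr21:34905880-34912975 over 5138 bp.

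The share of distal HL-60 regions that belonged to the shared set fell with distance from a TSS. It was 19.9% (18.2 to 21.6) of the 2124 regions between 2 and 5 kb away, 17.1% (15.6 to 18.7) between 5 and 10 kb, 13.3% (11.9 to 14.8) between 10 and 20 kb and 9.07% (7.91 to 10.4) between 20 and 50 kb. It was 4.26% (3.06 to 5.89) between 50 and 100 kb and 1.86% (1.01 to 3.38) of the 539 regions beyond, and the intervals of the first and last bins did not overlap. For comparison, 71.6% (70.8 to 72.5) of the 10764 HL-60 regions within 2 kb of a TSS were overlapped in all lines. The median distance was 7628 bp in members and 13133.5 bp in other distal regions, and the latter were also weaker in HL-60, with a median percentile of 29.1 against 54.8, whose part in this trend was not tested.

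The nearest members to the limit of 2 kb were at PPP2R2D (2007 bp), SLC9A5 (2013 bp) and RNASE1 (2016 bp), with HL-60 folds of 5.56, 3.01 and 4.46. The shared regions just excluded were at RNU6-148P (1997 bp), HADHB (1976 bp) and PRDM10 (1975 bp), with HL-60 folds of 7.50, 3.30 and 5.43. The smallest overlaps that admitted a member were 7, 9 and 15 bp, all with K562 peaks. By the RefSeq annotation, 35 members (2.63%) lay within 2 kb of a gene start that GENCODE did not place there, 6 of them of a named gene, among them SRF, ELF4, HDAC4 and RNASE1. No member held an annotated miRNA hairpin.

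The K562 list set the size of the shared group more than the other lists did. Of all distal HL-60 regions 40.7% were overlapped in OCI-AML3, 38.4% in Molm13 and 18.5% in K562. A peak was missing in K562 alone at 2156 regions, in Molm13 alone at 114 and in OCI-AML3 alone at 75. Starting from the distal peaks of the other lines, 1182 of the 19603 of Molm13 (6.03%) were shared by all lines. So were 1168 of the 21017 of OCI-AML3 (5.56%) and 1157 of the 20316 of K562 (5.70%). These lists held more distal peaks than the 9969 of HL-60, which lowers the share at a like count.

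By their centres, 58.8% of members lay in introns (56.2 to 61.5), 4.82% in exons (3.79 to 6.10) and 36.3% between genes (33.8 to 39.0). In all distal HL-60 regions, 60% were intronic. The difference between members and other distal regions was -1.34 percentage points for introns (Newcombe 95% interval -4.20 to 1.47) and 0.741 points for intergenic sequence (-2.0 to 3.55), neither larger than counting error.

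Members were found on each of the 23 chromosomes examined, most densely on chromosome 19 with 1.07 per Mb and least on chromosome 4 with 0.184. Of the distal HL-60 regions on the X chromosome 36.2% were members (50 of 138, 28.7 to 44.5), on chromosome 8 22.9% (27 of 118, 16.2 to 31.2) and on chromosome 19 22.7% (63 of 278, 18.1 to 27.9). On chromosomes 4 and 13 the shares were 5.73% (4.15 to 7.86) and 5.75% (3.86 to 8.48). The HL-60 list held 357 regions in all on chromosome 8 and 398 on X, against 1530 to 2359 and 812 to 874 in the other lists, and the K562 list held 479 on chromosome 13 against 609 to 1142, and the part of these numbers in the shares was not tested.

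The members differed from other distal regions in base composition, which the rule did not use. A fixed window of 500 bp at the centre of each region was read. Other distal regions were narrower, with a lower quartile of 365 bp against 643 bp in members. More of their windows thus reached past the peak, and the part of this in the differences was not tested. The central 500 bp of members had a median GC content of 46.8% (quartiles 41.6 and 53.2), that of other distal regions 42.4% (37.0 and 48.4) and that of shared regions near a TSS 62.4% (55.4 and 68.8). The median ratio of observed to expected CpG was 0.243, 0.20 and 0.762 in the same order. A CpG island-like window, with at least 50% GC and a ratio of at least 0.6, was found in 7.67% of members (6.36 to 9.23), in 1.05% of other distal regions (0.859 to 1.29) and in 70.8% of shared regions near a TSS (69.7 to 71.8). The 102 CpG-rich members had median folds of 4.38 (HL-60), 6.26 (Molm13), 4.15 (OCI-AML3) and 3.69 (K562), against 3.70, 5.12, 3.69 and 3.15 in the other 1227, and 27 of them were among the 100 strongest members across the lines.

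The windows were then searched on both strands for 20 motifs of factors that act in blood cells or at promoters. Among factors of the myeloid lineage, PU.1 (GAGGAAG) specifies myeloid cells, CEBP proteins (TTGCNNAA) drive granulocyte differentiation, RUNX proteins (TGTGGTT) and MYB (CAACTGNC) act in stem and progenitor cells, and HOXA9 (TGATTTA) and MEIS (TGACAG) maintain immature cells and are often raised in AML. GATA factors (AGATAAG) and TAL1 (the E-box CAGATG) are known for erythroid and megakaryocytic cells. AP-1 (TGANTCA), CREB and ATF (TGACGTCA), STAT (TTCCNNGAA), IRF (TTCNNTTTC) and NF-kB (GGGNNTTCC) respond to signals. ETS letters of the kind common at promoters (CCGGAAG), the MYC E-box (CACGTG), NFY (CCAATCA, the CCAAT box), the GC box of SP proteins (GGGGCGGG), KLF (CCACACCC) and NRF1 (GCATGCGC) are widely used, and CTCF (CCANNAGGG, part of its motif) organises chromatin loops. The PU.1 and ETS letters share GGAAG, and no correction for overlap between motifs was made.

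A member's window held a median of 2 different motifs (0 to 8). As for base composition, windows of the narrower other distal regions more often reached past the peak, and the part of this was not tested. Of the 20 motifs, 6 were more frequent in members than in other distal regions by more than counting error, with intervals adjusted for their number, none was less frequent and 14 did not pass. PU.1 letters were in 26.2% of members and 18.3% of other distal regions (difference 7.91 points, adjusted interval 4.20 to 11.9), against 19.3% of all distal regions. AP-1 letters were in 20.8% and 16.1% (4.67 points, 1.28 to 8.41), against 16.7% of all. The GC box was in 5.79% and 1.39% (4.40 points, 2.70 to 6.69; 1.98% of all) and the ETS letters in 5.12% and 2.01% (3.10 points, 1.48 to 5.29; 2.43% of all). The MYC E-box was in 8.65% and 6.32% (2.33 points, 0.111 to 5.06; 6.63% of all) and NFY in 6.55% and 4.31% (2.24 points, 0.335 to 4.68; 4.6% of all).

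Among the motifs that did not pass, GATA letters were in 9.78% of members and 7.47% of other distal regions (adjusted interval of the difference -0.0568 to 5.18 points) and RUNX letters in 14.1% and 11.6% (-0.298 to 5.85). CEBP letters were in 26.3% and 27.7% (-5.18 to 2.66) and HOXA9 letters in 6.40% and 8.61% (-4.21 to 0.283). Both PU.1 and CEBP letters stood in 90 members (6.77%), and AP-1 with PU.1 letters in 72 (5.42%).

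The motif calls changed when base composition or peak strength was held closer, with fewer windows and wider intervals. Among the 535 members and 2675 other distal regions with 45 to 55% GC, only NFY passed (7.48% against 3.93%, 3.55 points, 0.492 to 7.86), while the difference was 5.68 points for PU.1 (-0.370 to 12.3), 4.45 for AP-1 (-0.806 to 10.5) and 0.748 for the GC box (-1.12 to 3.96). Among peaks with a q-value below 0.001, which left 416 members, NFY, ETS and the GC box passed, and PU.1 letters were in 26.0% of members and 27.1% of other distal regions. The NFY difference was 0.735 points in windows of 200 bp and 0.333 where K562 was not required, neither past counting error.

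A comparison added after the data were seen set the members beside the 2156 distal regions that had peaks in the 3 AML lines and not in K562. In HL-60 these regions had a median width of 991 bp (1072 in members), a median fold of 3.59 (3.74) and a median GC content of 46.2% (46.8%). GATA letters were in 9.78% of members and 6.86% of the regions absent from K562 (2.92 points, adjusted interval 0.0556 to 6.03), NFY letters in 6.55% and 3.76% (2.79 points, 0.505 to 5.38) and the GC box in 5.79% and 2.37% (3.43 points, 1.38 to 5.82). CEBP letters were less frequent in members, at 26.3% against 31.4% (-5.19 points, -9.84 to -0.380). The other 16 motifs did not pass, among them 4 of the 6 called above, PU.1 at 26.2% and 26.9% (-5.34 to 3.95), AP-1 at 20.8% and 17.9% (-1.25 to 7.13), ETS at 5.12% and 3.43% (-0.394 to 4.06) and the MYC E-box at 8.65% and 8.67% (-2.90 to 3.09). RUNX was at 14.1% and 16.8% (-6.33 to 1.24). With 45 to 55% GC alone NFY passed (3.76 points, 0.101 to 8.21), GATA was at 9.72% against 6.45% (-1.07 to 8.28) and CEBP at 22.1% against 27% (-11.7 to 2.27).

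Set beside the 7711 shared regions near a TSS, 10 of the 20 motifs were more frequent in members, 6 were less frequent and 4 did not pass. AP-1 letters were in 20.8% of members and 7.41% of regions near a TSS (13.4 points, 10.1 to 17), CEBP in 26.3% and 12.6% (13.6 points, 9.97 to 17.6), RUNX in 14.1% and 4.80% (9.35 points, 6.59 to 12.6) and GATA in 9.78% and 3.09% (6.70 points, 4.40 to 9.49). The GC box was in 5.79% and 30.5% (-24.7 points, -27 to -21.9) and the ETS letters in 5.12% and 20% (-14.9 points, -17 to -12.4). PU.1 letters were in 26.2% and 22.7% (-0.271 to 7.56), NFY in 6.55% and 6.41% (-1.84 to 2.63), KLF in 5.79% and 4.84% (-0.877 to 3.32) and CTCF in 9.03% and 10.4% (-3.72 to 1.5), none past counting error. The GC contents of these sets lay far apart, 46.8% against 62.4%, and their part in the difference was not tested.

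A protein-coding TSS lay within 50 kb of a member for 2022 of 19970 genes, a background of 10.1%, and 7689 genes (38.5%) had any distal HL-60 region that near. The other way round, 206 members (15.5%) had no protein-coding TSS within 50 kb. The median distance to the nearest protein-coding TSS was 12279 bp. Distance does not show which gene a region acts on, and the lists below were chosen with results of these data known, so their counts are descriptions.

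Among haematopoietic transcription factors 13 of 35 genes had a member within 50 kb, and 25 had any distal HL-60 region. RUNX1, a master regulator of blood formation that is often mutated in AML, had 3 members, the strongest of which, at chr21:34905880-34912975 in its own intron, had folds of 6.38 (HL-60), 6.86 (Molm13), 5.18 (OCI-AML3) and 3.76 (K562). GFI1, a repressor in granulocyte formation, had a member at chr1:92457984-92463142 with 6.85, 9.64, 4.77 and 2.97. ETV6, an ETS repressor needed in stem cells, had 2, the stronger in its intron at chr12:11795721-11800827 with 4.59, 6.98, 5.02 and 3.68. These 3 genes were above the 56th percentile in each line, with K562 lowest for GFI1 at 56.7.

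By percentile, NFE2, LYL1 and MYB stood highest in K562 among the 4 lines. NFE2, an erythroid and megakaryocytic factor, had a member 2268 bp from its TSS at chr12:54303283-54307853 with 4.61, 5.25, 3.39 and 5.31, the last at the 99.6th percentile of K562. LYL1, a basic helix-loop-helix factor of stem cells, had one at chr19:13095444-13100193 with 5.11, 9.06, 2.67 and 4.67, at the 97.6th percentile in K562 and the 33.8th in OCI-AML3. MYB, which keeps progenitors dividing, had 3 members, the strongest at chr6:135149293-135150583 with 3.40, 4.73, 3.49 and 3.80. IKZF1, a zinc-finger factor of lymphoid and myeloid cells, had 4, of which that at chr7:50335649-50339155 had 4.64, 3.89, 3.02 and 3.28.

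For ZEB2, a zinc-finger repressor, the member at chr2:144510741-144512323 was at the 96.3rd percentile in Molm13 and the 99.9th in OCI-AML3 but the 31.1st in HL-60 and the 65.8th in K562. The remaining genes were CEBPB, LMO2, MEF2D, STAT5A and STAT5B, the last 2 of which shared a member in an intron of STAT5B at chr17:42247665-42249297. The LMO2 member at chr11:33912253-33912894, with 4.37, 5.89, 3.96 and 3.13, was within 2 kb of a RefSeq gene start.

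Of the AP-1 subunits and other immediate-early genes, which are switched on within minutes of a stimulus, 12 of 25 had a member within 50 kb and 15 had any distal HL-60 region. JUND had 2, the stronger at chr19:18291356-18293687 with folds of 5.99 (HL-60), 15.7 (Molm13), 6.07 (OCI-AML3) and 4.24 (K562), none below the 86th percentile, and it was within 2 kb of a RefSeq gene start. FOS had 2, the stronger at chr14:75298607-75299735 with 4.14, 10.1, 5.46 and 3.16. JUN had one at chr1:58816554-58816832 with 4.61, 4.60, 3.17 and 3.96, and FOSB 2, the stronger in an intron of ERCC1 at chr19:45455883-45456534 with 5.27, 6.57, 3.12 and 4.15. FOSL2, KLF6, IER2, IER5, BTG2, ZFP36L2, NR4A1 and ATF3 completed the list, and the ATF3 member was the weakest, at the 8.11th percentile in K562.

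Of 24 surface receptors 8 had a member, namely ITGB2, CD47, NOTCH1, TNFRSF1A, CD34, PTPRC, CSF3R and TNFRSF1B, and 20 had any distal HL-60 region. ITGB2, the beta-2 integrin chain of leukocytes, had 3 members, the strongest at chr21:44880379-44882714 with 4.51, 6.84, 4.24 and 3.11. CSF3R, the receptor of granulocyte colony-stimulating factor, had one at chr1:36486673-36487280 with 4.14, 8.20, 4.55 and 2.36, at the 92.5th percentile in Molm13 and the 7.20th in K562. PTPRC, the leukocyte phosphatase CD45, had one at chr1:198633602-198634763 with 3.11, 3.05, 2.81 and 3.87, which was at the 87.0th percentile in K562 and the 16.2nd in Molm13.

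Genes of metabolism and the cytoskeleton were also among the neighbours. Of 16 glycolysis genes 6 had a member (SLC2A3, PKM, PFKP, ENO1, LDHA and PGAM1). The PFKP member, in an intron of this platelet-type phosphofructokinase at chr10:3094204-3096627, had 4.23, 7.16, 4.72 and 5.50, at the 99.8th percentile in K562. Of 20 actin cytoskeleton genes 5 had one (TMSB4X, MSN, TLN1, CAP1 and MYH9), the MSN member lying in an intron of moesin, which ties actin to the membrane, with 4.16, 4.81, 5.04 and 3.24. Of 21 chromatin regulators 4 had one, DOT1L, KDM2B and SETD2 among them, that in DOT1L, the H3K79 methyltransferase, at chr19:2168080-2169599 with 5.61, 7.59, 4.06 and 3.66.

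The last 3 lists had shares near the background. Of 16 erythroid genes 1 had a member (HEMGN, at 3.88, 3.0, 2.38 and 2.53), of 14 lymphoid genes 1 (CD4, at 3.95, 4.01, 2.84 and 2.65) and of 16 genes of other tissues 2 (SYP and APOA2), beside the background of 10.1%. Any distal HL-60 region was near 4, 1 and 8 of these genes.

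Some members lay close together. When members no more than 12500 bp apart were joined, 229 (17.2%, 15.3 to 19.4) fell into 107 clusters and 1100 stood alone. Clusters of 4 were at chr20:53906495-53936005, between genes and 60098 bp from BCAS1, at chr6:7144812-7167428 in RREB1, a zinc-finger factor downstream of RAS, and at chr7:50335649-50357596 in IKZF1. The RREB1 cluster had median folds of 4.25 (HL-60), 7.65 (Molm13), 4.01 (OCI-AML3) and 3.86 (K562), the BCAS1 cluster 3.64, 5.95, 4.48 and 3.02, and the IKZF1 cluster 3.52, 3.89, 3.02 and 3.54.

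The next in the number of members, then span, were clusters of 3 at chr1:234499295-234524502 near TARBP1, with 4.24, 7.91, 4.09 and 2.68, and at chr3:177338373-177361872, 110373 bp from TBL1XR1, with 3.97, 5.42, 4.56 and 4.34. By the number of members within 50 kb of a TSS, a measure chosen after the values were seen, MBNL1, a splicing regulator, RAB31, a small GTPase of vesicle transport, and SAMSN1, an adaptor of haematopoietic cells, each had 6, and ARHGAP25, FNDC3B and RREB1 had 5.

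The binding of dCas9 gave a readout that the rule did not use, although it was measured in K562, where the rule requires an H3K27ac peak. In K562 with sgRNAs against LTR2B, a family of endogenous retroviral long terminal repeats, 4 members (0.301%, 0.117 to 0.771) were overlapped by a dCas9 peak, as were 2 of the 8640 other distal regions (0.0231%, 0.00635 to 0.0844) and 35 of the 7711 shared regions near a TSS (0.454%, 0.327 to 0.631). Over all distal regions the share was 0.0602%. Every member has a K562 H3K27ac peak by the rule, against 18.5% of all distal regions, and the part of this in the shares was not tested. The strongest was at chr1:31482671-31484343, 4587 bp from the pseudogene EEF1A1P46, with a dCas9 fold of 18.2 and H3K27ac folds of 4.73 (HL-60), 7.25 (Molm13), 5.08 (OCI-AML3) and 3.35 (K562).

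This member was the only one of the 4 with sites for the guides, and it held a site without a mismatch for each of the 4 sgRNAs. They are printed 5′ to 3′ on their own strand of hg38, with the PAM in capitals, to show that all guides meet in 1 shared region.
sgRNA 1 site (chr1:31483196-31483218, plus strand): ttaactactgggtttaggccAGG
sgRNA 2 site (chr1:31482999-31483021, minus strand): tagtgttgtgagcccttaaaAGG
sgRNA 3 site (chr1:31482904-31482926, plus strand): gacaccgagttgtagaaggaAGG
sgRNA 4 site (chr1:31482928-31482950, plus strand): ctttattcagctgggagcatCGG

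The other members with dCas9 peaks had no site within 3 mismatches, either in the member or under the whole dCas9 peak. They lay in an intron of ZNF321P at chr19:52936105-52937511 (dCas9 fold 11.9), in an intron of CREB3L1 at chr11:46317775-46319699 (5.78) and in an intron of LINC01344 at chr1:182299578-182301000 (4.78). Their K562 H3K27ac folds were 3.91, 2.58 and 4.37. With so few members bound and 1 dCas9 library, these are values of single regions.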

How the data were processed

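H3K27ac ChIP-seq was made from sonicated chromatin of 4 cell lines. Per the study's methods and the submitters' notes, reads were trimmed with Trim Galore, aligned to hg38 with Bowtie2 (versions stated differ) and kept where uniquely mapped, and broad peaks were called with MACS2 2.1.1; the control library is not given in the sources used here. Each deposited list gives per region the fold enrichment, a ratio over background, its −log10 q-value and p-value, and a display score, which the authors' caller derived from these and which was not used here. The authors called peaks per library. No read counts were given, so depth is unknown.

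Regions on chromosomes 1 to 22 and X were compared with GENCODE 44 starts (RefSeq for the check of starts). A member's value in a line is the highest fold enrichment among overlapping peaks. Shares carry Wilson 95% intervals and differences Newcombe intervals, for motifs also at 99.75% to adjust for 20 motifs. These treat regions as independent. Named regions were the 10 highest by lowest percentile, the 5 widest common stretches, the 5 largest clusters, the 3 on each side of the distance limit, every member with a dCas9 peak and up to 15 genes per list; others are marked as chosen later, and a few of the named regions are not reported here. Members and lists were chosen with earlier results of these data known. Alternatives varied the TSS distance and annotation, overlap, q-value, lines, windows, GC, gene distance and cluster gap. Overlap, motif and interval code was tested on simulated data and against bedtools 2.31.1 (Python 3.11.15, NumPy 2.4.6, SciPy 1.17.1, pysam 0.24.0).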

Additional observations from a re-analysis of the deposited data

How the results depend on the processing

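The causes of the changes below were not tested. With K562 not required, members rose to 3485 (35.0% of distal regions), by construction, with 19.0% of genes near one, 26.0% of members in clusters and 11 motifs higher and 1 lower. At a q-value below 0.001 there were 416 members (19.95%), 54.6% intronic, with 49% median GC, 3.52% of genes, 7.69% in clusters, 1 with dCas9 and 3 motifs higher. There the PU.1 and MYC E-box differences lost their call and turned to -1.12 and -0.690 points, neither past counting error. CEBP changed sign to 3.07 points with K562 not required and to 11.4 points when whole regions were searched. IRF changed sign to 11.6 points in whole regions, where members are wider and 19 motifs were higher. With 45 to 55% GC 1 motif was higher.

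With protein-coding starts only, the share was 16.6%, introns 52.0%, GC 48.6%, genes 13.4%, clusters 21%, and 10 motifs were higher and 2 lower. Beyond 5 kb the share was 11.6%, genes 6.16%, clusters 15.0% and dCas9 members 2; beyond 1 kb genes were 11.7%. With at least 50% of the region overlapped, the share was 9.89%, genes 7.85% and clusters 15.2%. Other starting lines, each with more distal peaks than HL-60, gave 6.03, 5.56 and 5.70%. Genes were 3.32% within 10 kb and 17.1% within 100 kb, and clusters 8.35% at gaps of 5 kb and 25.6% at 25 kb. Ranked against distal peaks only, with overlapping peaks near a TSS kept, the median percentiles were 79.0, 89.1, 87.9 and 82.8. In alternatives added after the data were seen, without regions whose overlapping peaks reach a TSS the share was 10.7%, genes 7.10%, clusters 13.7% and dCas9 members 2, and without CpG-rich windows the share was 12.6%, introns 61.9% and genes 9.22%, with 6 and 7 motifs higher. Over all alternatives, 49 summary values stayed within their interval (counts within 1.5 times) and 49 moved. Of the single motif differences 175 kept their call, 28 became called, 12 lost it with the sign kept and 5 changed both sign and call. Differences that changed sign but were called in neither setting count as kept. No paired analysis was possible because each line had 1 library.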
